A study of Rattus norvegicus with 14 samples.

Results

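The comparison described here sets 3 rat stem cell lines grown from bone marrow, CL19, 3C3 and RMAPC-1, against 1 rat mesenchymal line, RClone-2, which the series included as its control. Arrays were chosen by their tissue label, bone marrow or mesenchymal control, which took 8 of the 14 arrays of the series, 6 of bone marrow lines and 2 of RClone-2. All 4 lines carry the strain label Fischer. CL19 is labelled female, and 3C3, RMAPC-1 and RClone-2 are labelled male. The other 6 arrays hold 3 lines from blastocysts (Fi1 and Fi2, Fischer, and Wk8, Wistar-Kyoto). Each line was hybridized on an array A and an array B, and the labels do not say whether these came from separate cultures, so a line is 1 replicate here. The mesenchymal group is a single line, so what is peculiar to RClone-2 cannot be told apart from what is mesenchymal.

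The series describes its stem cell lines as hypoblast stem cells. The hypoblast, or primitive endoderm, is the extraembryonic epithelium of the early embryo that lines the blastocyst cavity and later forms the visceral and parietal endoderm of the yolk sac. Its cells are specified by transcription factors of the GATA, SOX and FOXA families, lay down basement membrane and take up nutrients through the receptors megalin and cubilin. Mesenchymal cells, by contrast, lack epithelial junctions, make fibrillar collagen and carry transcription factors such as Prrx1 and Twist1. The comparison asks how far lines obtained from adult marrow differ from a mesenchymal line in these programmes.

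Levels are log2 processed signals minus the 75th percentile of their array, so a level of 0 is that of a probe at the 75th percentile. A difference is the mean of the bone marrow lines minus RClone-2 on this log2 scale, ± the standard error of the fit, where 1 unit is a 2-fold difference. The adjusted p is that of limma's moderated test over all genes. Where a gene was not well above background on any array of a group, the fold printed is a lower bound on this signal scale only. Under normexp background correction folds could be smaller, as for Nodal, with a difference of 0.67. The bound allows for no error in the brighter group and sets the dim group at the lowest signal still counted as well above background. Medians of gene groups, and differences of genes above background on only some arrays of a group, are also given with every dimmer signal raised to that limit of its array, called the floor here and added after seeing the data. With signals at the floor the median difference over all genes was 0.20.

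Before any comparison, the arrays were set against their sex labels with the Y-linked genes Eif2s3y and Ddx3y, which only cells with a Y chromosome can transcribe. Eif2s3y lay at 1.69 and 1.61 on the arrays of RClone-2 and at 2.09 on array B of RMAPC-1. It was not well above background on array A of RMAPC-1, at -7.05, nor on the arrays of 3C3, at -8.23 and -8.01, nor on those of CL19, at -7.92 and -8.59. Ddx3y was well above background on array B of RMAPC-1, at -1.01, and on the arrays of RClone-2, at -1.40 and -1.79, and not on the other bone marrow arrays. Uty, another gene named for the Y chromosome, was well above background on all 14 arrays, the female-labelled ones included, at -0.08 and 0.15 in CL19 and -2.36 and -2.56 in RClone-2. Both probes of that name carry coordinates on chromosome X in the files, so Uty was not read as a check. So 3 of the 4 male-labelled bone marrow arrays had neither Eif2s3y nor Ddx3y above background, and arrays A and B of RMAPC-1 went opposite ways under the same labels. The 8 arrays outside the bone marrow lines all had Eif2s3y as their sex label has it. Arrays A and B of RMAPC-1 also differed more than other pairs: 4190 genes were over 2-fold apart, against 790 for CL19, 1616 for 3C3 and 790 for RClone-2, and their correlation across genes was 0.971 against 0.990 to 0.995. Counts below were therefore repeated without RMAPC-1, without each of its arrays, and without 3C3 and array A of RMAPC-1, and are given where they moved by over 1.5 times.

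**Figure D1:**
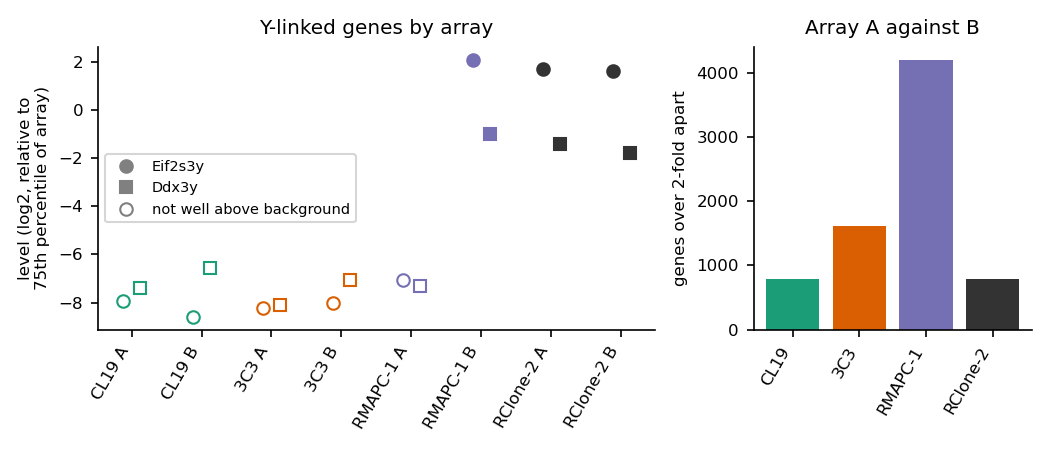
Left, levels of the Y-linked genes Eif2s3y and Ddx3y on each array of the 4 lines (log2 signal relative to the 75th percentile of the array), filled where well above background; only array B of RMAPC-1 and the arrays of RClone-2 are filled. Right, number of genes over 2-fold apart between arrays A and B of each line, which is 4190 for RMAPC-1 and at most 1616 for the other lines.

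Of 24842 genes tested, 6658 were higher in the bone marrow lines (26.8%) and 4838 were lower (19.5%) at an adjusted p under 0.05, and 8641 of them differed over 2-fold. The median difference over all genes was 0.18. Of the higher genes, 1469 were above background on neither RClone-2 array, and of the lower genes, 1030 on no bone marrow array. The filter kept such a gene only through other lines that detect it, so the direction of its call was largely fixed by the filter. Arrays of 3C3 and RMAPC-1 lay on the same slides as those of RClone-2, and arrays of CL19 on slides with the blastocyst lines. Within the shared slides, 3C3 and RMAPC-1 against RClone-2, 8704 genes were called, and 10163 with a term for the slide pair. The bone marrow arrays correlated at 0.793 to 0.802 across genes with those of RClone-2. The shares of all tested genes that were higher or lower are the background against which the counts of each gene group are read. They include entries without a gene symbol. A count near these shares does not set its group apart from all genes. Of the 24842, 12513 carried a symbol, and 6269 of those were called in either direction, against 11496 of all. The array signal at the 75th percentile was 558.9 to 660.1 on the bone marrow arrays and 599.0 to 630.7 on those of RClone-2, and 61.6 to 67.1% of probes were well above background.

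The transcription factors of primitive endoderm were high in the bone marrow lines. Of 17 measured members of that list, 10 were higher and 2 lower, with a median difference of 5.57 (5.07 with signals at the floor). Gata4, a zinc finger factor that specifies primitive endoderm, had line means of 5.29 for CL19, 5.10 for 3C3 and 4.97 for RMAPC-1, against -1.51 and -1.55 on the arrays of RClone-2, a difference of 6.65 ± 0.18 (adjusted p = 4.08e-06). Gata6, its partner in the same lineage, had line means of 5.06, 4.89 and 5.13 against -3.20 and -2.88, a difference of 8.06 ± 0.18 (adjusted p = 2.42e-06). In both genes every bone marrow array lay above both RClone-2 arrays, and the bone marrow lines lay close together. Foxa2, a pioneer factor of endoderm, had line means of 5.67, 6.005 and 5.78 against -3.08 and -2.45, a difference of 8.58 ± 0.21 (adjusted p = 3.14e-06). Sox17, an endoderm factor downstream of the GATA factors, stood at 3.96, 4.19 and 4.14 against -5.23 and -5.38, a difference of 9.40 ± 0.34 (adjusted p = 9.66e-06), and a second probe of it differed by 6.73. Sox7, its relative in extraembryonic endoderm, was well above background on every bone marrow array and on no RClone-2 array, and was at least 385-fold higher (adjusted p = 4.62e-06). Its second probe differed by 4.38. The same detection pattern held for Hhex, a homeobox factor of anterior endoderm, which was at least 274-fold higher (adjusted p = 1.35e-05). It also held for Eomes, a T-box factor, at least 5.12-fold higher (adjusted p = 0.00151). The lower genes were Mixl1, a mesendoderm homeobox factor, at -1.16 ± 0.23, and Onecut1, a liver factor, which was at least 8.58-fold lower (adjusted p = 0.00419). Klf4 and Foxq1 did not pass, with differences of -0.30 ± 0.22 and 2.13 ± 1.07. Mixl1 missed the threshold of limma's test in part of the alternatives, its adjusted p being 0.0729 with 3C3 and RMAPC-1 set against RClone-2 on their shared slides. Eomes, Mixl1 and Onecut1 did not pass limma's test under normexp background correction, at an adjusted p of 0.145, 0.108 and 0.111.

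**Figure D2:**
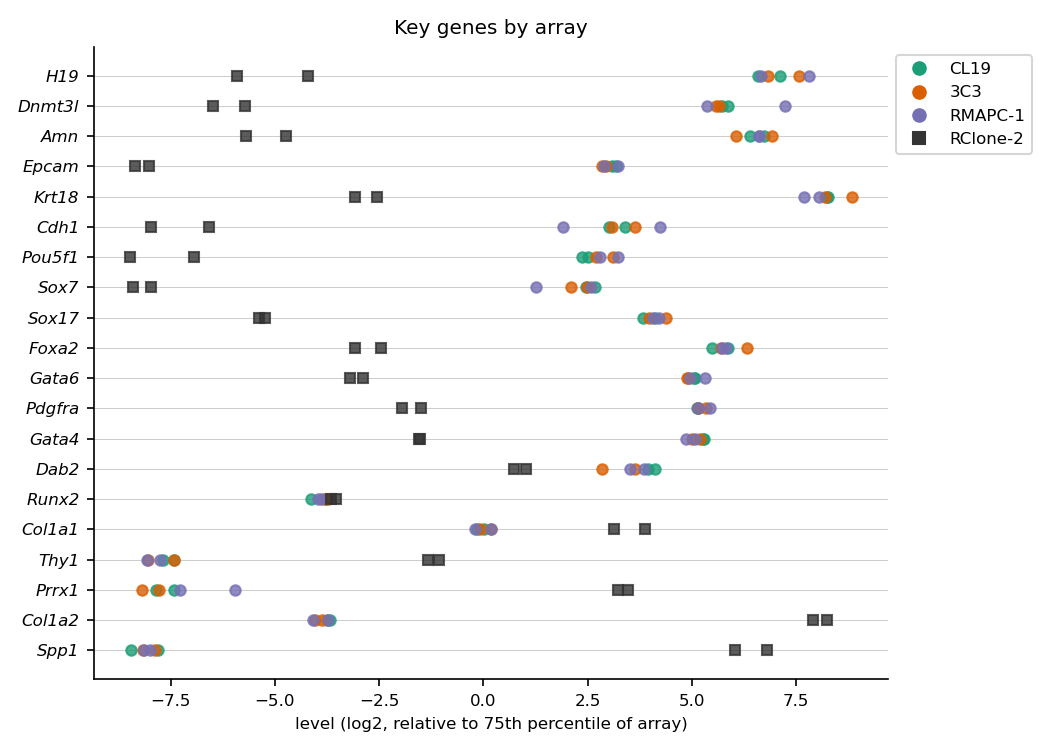
Levels of the 20 key genes on each array (log2 signal relative to the 75th percentile of the array; circles, bone marrow lines; squares, RClone-2). Endoderm, epithelial and germline genes lie to the right in the bone marrow lines, Col1a1, Col1a2, Prrx1, Thy1 and Spp1 lie to the right in RClone-2, and the points of Runx2 lie close together without overlap.

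Visceral endoderm takes up and transports nutrients, and its absorptive receptor complex was high. Of 26 measured genes of visceral endoderm and yolk sac, 14 were higher and 1 lower, with a median difference of 3.30 (2.00 with signals at the floor). Of the 26, 12 were above background on neither RClone-2 array, so the filter bears on their direction. Amn, the membrane anchor of cubilin, had line means of 6.56 for CL19, 6.49 for 3C3 and 6.61 for RMAPC-1 against -5.69 and -4.74, a difference of 11.77 ± 1.62 (adjusted p = 0.00215). Cubn, the cubilin receptor itself, differed by 8.28 ± 0.90 (adjusted p = 8.38e-04), and Lrp2, which encodes megalin, was at least 409-fold higher (adjusted p = 8.19e-04) and lay below background on both RClone-2 arrays. Dab2, the adaptor that internalizes this complex, differed by 2.78 ± 0.68 (adjusted p = 0.0183). All 3 bone marrow lines stood above RClone-2 in each of these genes. Apoe, a lipid carrier that yolk sac endoderm secretes, had line means of 8.61, 8.36 and 8.37 against -1.22 and -1.54, a difference of 9.83 ± 0.25 (adjusted p = 3.51e-06). Ihh, a hedgehog ligand of visceral endoderm, differed by 9.37 ± 1.36 (adjusted p = 0.0026), and 3 further probes of it by 5.53, 6.69 and 7.57. Dkk1, a secreted WNT inhibitor of anterior visceral endoderm, was at least 647-fold higher (adjusted p = 3.14e-05). The serum proteins Alb and Serpina1 did not pass the filter on dim probes in any line. The lower member, Rbp4, a retinol carrier, differed by -0.93 ± 0.21, and the list had no lower member without array A of RMAPC-1, with or without 3C3. Rbp4 missed the threshold of limma's test in part of the alternatives, its adjusted p being 0.0529 with 3C3 and RMAPC-1 set against RClone-2 on their shared slides, 0.0842 with 3C3 and array A of RMAPC-1 left out and 0.0552 with array A of RMAPC-1 left out. Rbp4 did not pass limma's test under normexp background correction, at an adjusted p of 0.764.

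Parietal endoderm deposits the thick basement membrane of the yolk sac. Of its 21 measured genes, 15 passed as higher and 5 as lower, the latter 3 without 3C3 and array A of RMAPC-1. Pth1r, the receptor for parathyroid hormone-related protein that drives parietal differentiation, had line means of 5.71 for CL19, 5.66 for 3C3 and 5.65 for RMAPC-1 against -4.52 and -5.53, a difference of 10.696 ± 0.20 (adjusted p = 1.76e-06). Lama1, the alpha chain of laminin-111, had line means of 7.16, 6.50 and 6.78 against -3.64 and -3.90, a difference of 10.58 ± 0.30 (adjusted p = 4.24e-06). Its partner chains Lamb1 and Lamc1 differed by 3.69 ± 0.22 and 2.87 ± 0.36, and both were also well above background in RClone-2. Chains of other laminins went the other way: Lama5 differed by -6.63 ± 0.76 (adjusted p = 0.00105), Lamb2 by -1.52 ± 0.23, and Lama3, above background only in RClone-2, was at least 8.69-fold lower (adjusted p = 2.01e-04). The linker proteins nidogen split as well, with Nid2 at 5.18 ± 0.55 and Nid1 at -2.63 ± 0.63. Across the basement membrane list, 8 of 18 genes were higher and 7 lower. Tfpi2, a protease inhibitor of parietal endoderm, was at least 5.34-fold lower (adjusted p = 4.99e-05). Sparc, which encodes an abundant matrix protein of parietal endoderm and of bone, was bright in all lines and differed by 1.30 ± 0.22. Nid1 missed the threshold of limma's test in part of the alternatives, its adjusted p being 0.0742 with 3C3 and array A of RMAPC-1 left out. Lama3 and Tfpi2 did not pass limma's test under normexp background correction, at an adjusted p of 0.0919 and 0.231.

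Genes of the early embryo and germ line stood with the endoderm factors. Of 12 measured members, 8 were higher and 0 lower, with a median difference of 4.06 (2.81 with signals at the floor). Of the 12, 6 were above background on neither RClone-2 array, so the filter bears on their direction. Pou5f1, which encodes the pluripotency factor Oct4, was well above background on all 6 bone marrow arrays and on neither RClone-2 array, with line means of 2.44 for CL19, 2.90 for 3C3 and 3.01 for RMAPC-1, and was at least 553-fold higher (adjusted p = 4.37e-05). Lin28a, which blocks maturation of let-7 microRNAs, had line means of 6.72, 7.12 and 6.87 against -3.78 and -4.01, a difference of 10.80 ± 0.30 (adjusted p = 4.06e-06). Tfcp2l1, a factor of naive pluripotency, was at least 91.0-fold higher (adjusted p = 7.79e-05), Dppa3, a maternal and germ cell gene, at least 57.4-fold higher, and Ddx4, the germ cell helicase Vasa, at least 11.9-fold higher. Sox2, Esrrb, Fgf4 and Prdm1 did not pass the filter on dim probes, and 12 listed genes, Nanog and Zfp42 among them, had no probe under their symbol. Klf2 did not pass, at -0.95 ± 0.58.

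Among regulators of DNA methylation and chromatin, 12 of 26 were higher and 4 lower. Dnmt3l, the germ cell cofactor of the de novo methyltransferases, had line means of 5.80 for CL19, 5.61 for 3C3 and 6.30 for RMAPC-1 against -6.49 and -5.71, a difference of 12.01 ± 1.27 (adjusted p = 7.41e-04). The methyltransferase Dnmt3b differed by 6.14 ± 0.48 (adjusted p = 2.09e-04), and Dnmt3a was at least 22.7-fold higher (adjusted p = 4.53e-04). The maintenance enzyme Dnmt1 did not pass, at 0.55 ± 0.18. Tet2, which oxidizes methylcytosine, differed by 4.02 ± 0.32, and Chd7, a chromatin remodeller, by 4.39 ± 0.21 (adjusted p = 2.76e-05). The lower members were Hmga1 and Hmga2, architectural proteins of growing mesenchyme, at -3.75 ± 0.59 and -4.04 ± 1.26, the remodeller subunit Smarcd3 at -5.26 ± 0.86 and Mbd2, which binds methylated CpG, at -1.32 ± 0.22. Hmga2 was above background on only 5 of the 6 bone marrow arrays, and with signals at the floor its difference was -4.04. Dnmt3l and Tet2 were above background on only 1 of the 2 RClone-2 arrays, and with signals at the floor the differences were 11.82 and 3.96. Hmga1 missed the threshold of limma's test in part of the alternatives, its adjusted p being 0.0563 with 3C3 and RMAPC-1 set against RClone-2 on their shared slides. Hmga2 missed the threshold of limma's test in part of the alternatives, its adjusted p being 0.0974 with 3C3 and array A of RMAPC-1 left out, 0.054 with array A of RMAPC-1 left out, 0.0596 with array B of RMAPC-1 left out, 0.0899 with 3C3 left out, 0.0664 with CL19 left out and 0.0929 with RMAPC-1 left out.

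Epithelial genes were high in the bone marrow lines. Of 34 measured genes of epithelial adhesion and polarity, 27 were higher and 0 lower, with a median difference of 7.02 (6.25 with signals at the floor), and 1 was lower without RMAPC-1. Of the 34, 18 were above background on neither RClone-2 array, so the filter bears on their direction. Cdh1, E-cadherin of the adherens junction, was above background on all 6 bone marrow arrays and on neither RClone-2 array, with line means of 3.20 for CL19, 3.36 for 3C3 and 3.07 for RMAPC-1, and was at least 745-fold higher (adjusted p = 1.71e-04). Epcam, an epithelial adhesion molecule, had the same detection pattern, with line means of 3.13, 2.90 and 3.07 against -8.02 and -8.35, and was at least 659-fold higher (adjusted p = 1.74e-05). F11r, a tight junction molecule, was at least 1082-fold higher (adjusted p = 1.52e-05). The keratins of simple epithelia followed. Krt18 had line means of 8.25, 8.52 and 7.88 against -3.09 and -2.55, a difference of 11.03 ± 0.33 (adjusted p = 5.00e-06), its partner Krt8 differed by 8.22 ± 0.53 (adjusted p = 9.78e-05), and Krt19 was at least 418-fold higher (adjusted p = 1.93e-05). Ap1m2, which sorts proteins to the basolateral membrane, was at least 684-fold higher (adjusted p = 8.72e-04). The scaffold protein Tjp1 and the desmosomal Pkp2 did not pass, with differences of -0.22 ± 0.29 and -1.01 ± 0.41.

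The factors that repress epithelial genes lay in the opposite direction. Of 16 measured genes of mesenchymal transition, 0 were higher and 13 lower, with a median of -5.49 (-4.96 with signals at the floor). Zeb2, a repressor of Cdh1, was above background on both RClone-2 arrays, at 0.17 and 0.21, and on no bone marrow array, and was at least 74.95-fold lower (adjusted p = 3.13e-05). Snai2, a repressor of the same kind, was at least 14.7-fold lower (adjusted p = 1.52e-04). Its relative Snai1 did not pass, with line means of 2.84, 3.01 and 2.75 against 2.87 and 2.72. Prrx1, a homeobox factor of mesenchyme, was at 3.22 and 3.47 in RClone-2 and above background on no bone marrow array, and was at least 669-fold lower (adjusted p = 4.68e-05). Twist1 differed by -7.07 ± 0.18 (adjusted p = 3.52e-06), and another probe of it by -9.53. Among structural members, Vim, the mesenchymal intermediate filament, differed by -4.20 ± 0.69 (adjusted p = 0.00428) and stayed well above background in all lines, at 5.42, 3.80 and 4.36 in the bone marrow lines and 8.86 and 8.59 in RClone-2. Cdh2, N-cadherin, differed by -5.46 ± 0.75 (adjusted p = 0.00214), and Tgfbi, a matrix adaptor induced by TGF-beta, by -12.94 ± 1.24 (adjusted p = 4.99e-04). S100a4, a calcium-binding protein of fibroblasts, differed by -13.01 ± 0.29 (adjusted p = 2.25e-06) at its brightest probe and by -15.37 and -4.25 at the others. Cdh2 and Tgfbi were above background on only 3 and 2 of the 6 bone marrow arrays, and with signals at the floor the differences were -5.26 and -12.37.

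The factors Snai2 and Zeb2 bind the E-box CAGGTG, or CACCTG read on the other strand, in epithelial promoters. Promoter windows from RefSeq on assembly GRCr8 are shown for 4 epithelial genes of the list so that the arrangement of such letters can be seen beside the values above. They are the 250 bases before the start site, printed 5′ to 3′ on the strand of the gene, with each E-box in capitals. Crb3, an apical polarity protein, and Cldn6, a tight junction claudin, were picked after their values and matches were seen; both hold 3 matches, and Epcam and Krt8 hold 1 each.
Crb3 (chr9:1987504-1987753, plus strand): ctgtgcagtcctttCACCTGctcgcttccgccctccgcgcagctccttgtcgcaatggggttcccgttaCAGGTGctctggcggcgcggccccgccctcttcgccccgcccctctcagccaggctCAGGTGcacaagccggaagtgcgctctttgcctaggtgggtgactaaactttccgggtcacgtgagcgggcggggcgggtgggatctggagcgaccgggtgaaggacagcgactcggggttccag
Cldn6 (chr10:13215558-13215807, plus strand): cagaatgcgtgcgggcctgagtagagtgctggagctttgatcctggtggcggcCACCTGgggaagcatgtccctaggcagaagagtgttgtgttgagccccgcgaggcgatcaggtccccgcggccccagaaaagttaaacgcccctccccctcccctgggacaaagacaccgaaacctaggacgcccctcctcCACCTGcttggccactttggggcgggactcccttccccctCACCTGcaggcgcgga
Epcam (chr6:12649679-12649928, minus strand): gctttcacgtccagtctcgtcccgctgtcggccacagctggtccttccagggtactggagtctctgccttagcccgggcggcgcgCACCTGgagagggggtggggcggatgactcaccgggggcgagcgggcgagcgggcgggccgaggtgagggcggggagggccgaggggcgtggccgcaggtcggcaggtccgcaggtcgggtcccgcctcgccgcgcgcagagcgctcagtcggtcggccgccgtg
Krt8 (chr7:135010340-135010589, minus strand): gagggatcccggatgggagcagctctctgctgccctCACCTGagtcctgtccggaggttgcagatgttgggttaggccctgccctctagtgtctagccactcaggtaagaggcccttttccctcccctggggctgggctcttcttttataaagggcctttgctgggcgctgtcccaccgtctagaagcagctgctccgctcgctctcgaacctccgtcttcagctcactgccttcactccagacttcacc
Positions are counted back from -1, the base before the start site. The matches of Crb3 begin at -236, -181 and -125. The matches of Cldn6 begin at -197, -56 and -16. The match of Epcam begins at -165. The match of Krt8 begins at -214. Of 34 measured epithelial genes, 22 had a window and 18 of these hold the E-box on either strand, 81.8%. Among the 19 windows of genes called higher, 16 hold it, and 7 of the 22 windows hold it at more than 1 place. Of all 10233 tested genes with a window, 1 window each, 15.3% hold it, and so do 15.9% of the 33469 windows in the table. The other letterings looked at were the symmetric E-boxes CAGCTG as well as CACGTG, then CATGTG, which reads CACATG on the other strand, and then CAGATG, which reads CATCTG there, each in 0 to 3 of the same 22 windows and in 7.46 to 12.3% of the windows of all tested genes. In 44 other gene groups with 5 windows or more, CAGGTG or CACCTG was in 0 to 28.6% of windows, with a median of 11.3%. That range leaves out the key genes, which include epithelial ones, with 4 of 12. These shares are a description of letters, with no test. Windows of epithelial genes not called higher hold the E-box too, and whether it bears on the levels of these genes was not tested. Crb3 was at least 285-fold higher (adjusted p = 0.0125) in the bone marrow lines, and Cldn6 differed by 5.77 ± 0.83 (adjusted p = 0.00253). A match marks letters only, and no binding was measured here. Cldn6 was above background on only 1 of the 2 RClone-2 arrays, and with signals at the floor its difference was 5.53.

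**Figure D3:**
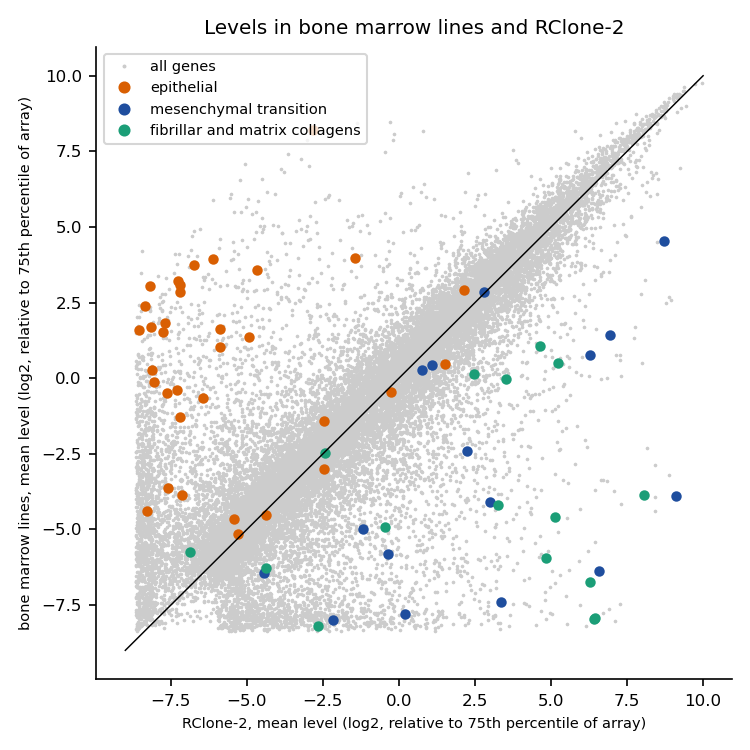
Mean level of each gene in the 3 bone marrow lines (vertical) against RClone-2 (horizontal), log2 relative to the 75th percentile of the array, for all 24842 genes in grey, with epithelial genes, mesenchymal transition genes and fibrillar and matrix collagens in colour; the line marks equal levels. Most epithelial genes lie above the line and most genes of the other groups below it.

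Fibrillar and matrix collagens were mostly lower, with 1 of 16 higher and 13 lower, and a median of -5.12 (-4.59 with signals at the floor). Col1a2, a chain of type I collagen, had line means of -3.72 for CL19, -3.95 for 3C3 and -3.91 for RMAPC-1 against 8.24 and 7.90, a difference of -11.93 ± 0.24 (adjusted p = 2.05e-06). Col3a1 differed by -13.03 ± 0.27 (adjusted p = 2.12e-06), and Col5a2 was at least 5560.3-fold lower (adjusted p = 4.30e-06). Col6a1, a chain of beaded filaments, was at least 5774-fold lower (adjusted p = 7.75e-04). Col1a1 differed by -3.52 ± 0.16 (adjusted p = 2.20e-05) at its brightest probe, and by -13.47 and -5.63 at its other probes, so its size depends on the probe while its direction does not. The one higher member, Col8a2, was at least 1.49-fold higher (adjusted p = 0.0493), and no member was higher without RMAPC-1, without its array A, or without 3C3 and that array. Of 22 collagen processing enzymes, 3 were higher and 10 lower. The crosslinking oxidases Lox, Loxl1 and Loxl3 were all lower, Lox by at least 491-fold, Loxl1 with a difference of -11.45 ± 0.92 and Loxl3 with -9.77 ± 0.62. Pcolce, which enhances procollagen cleavage, differed by -6.08 ± 0.62. P3h2, a prolyl hydroxylase of basement membrane collagen, differed by 6.14 ± 0.63 (adjusted p = 6.48e-04) and Serpinh1, the collagen chaperone, by 1.18 ± 0.17. Col3a1, Loxl1 and Loxl3 were above background on only 1, 5 and 3 of the 6 bone marrow arrays, and with signals at the floor the differences were -12.21, -11.40 and -9.74. Col8a2 missed the threshold of limma's test in part of the alternatives, its adjusted p being 0.272 with 3C3 and array A of RMAPC-1 left out, 0.159 with array A of RMAPC-1 left out, 0.0952 with 3C3 left out, 0.107 with CL19 left out and 0.0687 with RMAPC-1 left out. Col8a2 did not pass limma's test under normexp background correction, at an adjusted p of 0.972.

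Of 27 small leucine-rich proteoglycans and matricellular proteins, 2 were higher and 16 lower, with a median of -3.53 (-1.88 with signals at the floor). Of the 27, 13 were above background on no bone marrow array, so the filter bears on their direction. Spp1, osteopontin, was at 6.05 and 6.80 on the arrays of RClone-2 and above background on no bone marrow array, and was at least 5648-fold lower (adjusted p = 1.49e-06). Thbs2, an anti-angiogenic matricellular protein, was at 6.97 and 6.84 in RClone-2 and likewise above background on no bone marrow array, at least 7882-fold lower. Fbn1, the core of elastic microfibrils, differed by -10.28 ± 0.81 (adjusted p = 2.23e-04), and Ccn4, a WNT-inducible matrix protein, was at least 1079.7-fold lower. Fbln1 and Mfap5 were the higher members, at 4.53 ± 0.24 and 3.79 ± 0.25. Among matrix proteases and inhibitors, 5 of 26 were higher, 3 without array B of RMAPC-1, and 16 lower. Of the 26, 8 were above background on no bone marrow array. Plau, the urokinase activator, was at least 104-fold lower, while Plat, the tissue activator that parietal endoderm secretes, was at least 6.21-fold higher. Mmp3 was at least 89.1-fold lower. Timp3, a matrix-bound inhibitor, differed by 5.77 ± 0.57. Timp3 was above background on only 1 of the 2 RClone-2 arrays, and with signals at the floor its difference was 5.48. Plat did not pass limma's test under normexp background correction, at an adjusted p of 0.245.

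Cell surface genes differed in both directions. Integrin chains, the receptors for matrix, were lower for 9 of 15 and higher for 3. Itga2, a collagen receptor chain, was at least 47.4-fold higher (adjusted p = 9.60e-06), and Itgb6, an epithelial chain, differed by 6.93 ± 0.49 (adjusted p = 1.36e-04). Itga7, a laminin receptor chain, differed by 5.84 ± 0.32. Itga3, Itga5 and Itgb4 were lower, at -6.07 ± 0.33, -2.52 ± 0.26 and -2.54 ± 0.32, and the common chain Itgb1 did not pass, at -0.95 ± 0.36. Of 18 caveolins, gap junction and aquaporin genes, 10 were lower and 1 higher. Cav1, the coat protein of caveolae, differed by -7.09 ± 0.60 (adjusted p = 2.95e-04), and Cav2 was at least 102-fold lower. Aqp1, a water channel, had line means of -3.28, -3.62 and -3.23 against 6.75 and 6.53, a difference of -10.02 ± 0.48 (adjusted p = 3.10e-05), while Aqp8, another, was at least 320.1-fold higher. Of 19 cadherin family genes, 7 were higher and 5 lower. Gja5, a gap junction protein, was at least 88.8-fold lower. Cav1 was above background on only 4 of the 6 bone marrow arrays, and with signals at the floor its difference was -7.01.

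Markers used to define mesenchymal stromal cells were split. Of 24 measured, 7 were higher and 11 lower. Thy1, CD90, was at -1.07 and -1.32 in RClone-2 and above background on no bone marrow array, at least 28.7-fold lower (adjusted p = 3.55e-05). Eng, CD105, had line means of -4.28, -4.29 and -4.56 against -0.17 and 0.19, a difference of -4.39 ± 0.43 (adjusted p = 5.66e-04), and Cd44, the hyaluronan receptor, -2.18, -2.70 and -2.25 against 5.31 and 5.23, a difference of -7.65 ± 0.82 (adjusted p = 7.93e-04). Pdgfrb, a receptor of mesenchyme and pericytes, differed by -11.63 ± 0.47 (adjusted p = 1.53e-05), and Cspg4, the pericyte proteoglycan NG2, by -11.84 ± 0.75 (adjusted p = 8.80e-05). Nt5e, CD73, did not pass the filter on dim probes in any line, RClone-2 included. The higher members included Cd200, a surface immune regulator, at least 198-fold higher (adjusted p = 1.47e-05), Nes, which encodes nestin, at 5.54 ± 0.50 (adjusted p = 3.92e-04), and Mme, CD10, at 4.90 ± 0.31. Pdgfrb and Cspg4 were above background on only 1 and 4 of the 6 bone marrow arrays, and with signals at the floor the differences were -10.13 and -11.81.

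Genes of the mesenchymal fates were measured as markers of the cells RClone-2 could hold or form. Of 16 bone and osteoblast genes, 2 were higher and 9 lower. Mepe, a matrix phosphoprotein of osteocytes, differed by -8.56 ± 0.58 (adjusted p = 1.15e-04), and Msx1, a homeobox factor of bone precursors, by -6.31 ± 0.78 (adjusted p = 0.00137). Runx2, the osteoblast factor, did not pass at its brightest probe, with line means of -3.95, -3.77 and -3.94 against -3.65 and -3.53, and its other probes differed by -4.06, -2.71 and -2.34. Sp7, Ibsp and Dmp1 did not pass the filter in any line. Of 12 cartilage and adipose genes, 2 were higher and 5 lower. Cebpb, an adipogenic factor, differed by -4.75 ± 0.36, and Comp, a cartilage matrix protein, was at least 109-fold higher. Of 14 smooth muscle genes, 4 were higher (28.6%, against 26.8% of all genes) and 4 lower (28.6%, against 19.5%). Cnn1, calponin, was at least 33.3-fold higher, Myl9 differed by 6.72 ± 0.62 and Tpm2 by -6.42 ± 1.06. Mepe and Msx1 were above background on only 1 and 5 of the 6 bone marrow arrays, and with signals at the floor the differences were -7.95 and -6.29.

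Genes of body axis and limb position were more often lower than higher. Of 20 measured HOX genes, which encode positional identity along the body, 3 were higher and 11 lower, with a median of -1.07 (-0.84 with signals at the floor). Hoxa9 was at -1.58 and -1.56 in RClone-2 and above background on no bone marrow array, and was at least 22.0-fold lower. Hoxc10 had the same detection pattern, at -0.87 and -1.04 in RClone-2, and was at least 33.9-fold lower. Hoxa10 differed by -6.66 ± 0.70 (adjusted p = 7.12e-04), Hoxc11 by -6.36 ± 0.53 (adjusted p = 2.84e-04) and Hoxa7 by -3.79 ± 0.30 (adjusted p = 2.15e-04). The higher members were Hoxc12, at least 9.87-fold higher and above background on no RClone-2 array, Hoxc13, at least 2.62-fold higher, and Hoxd13, which was called although it lay below background on all 8 arrays and so has no fold. Hoxc5 did not pass, at 0.24 ± 0.17. Of 30 limb and axial patterning factors, 2 were higher and 12 lower. Tbx18 and Shox2, factors of mesenchymal condensation, were at least 122-fold and at least 65.7-fold lower, and Osr1 differed by -7.87 ± 0.30. Pitx1, a hindlimb factor, was bright in all lines and differed by 1.74 ± 0.23. Hoxa10 and Osr1 were above background on only 1 and 2 of the 6 bone marrow arrays, and with signals at the floor the differences were -5.91 and -7.67. Hoxc12 and Hoxc13 did not pass limma's test under normexp background correction, at an adjusted p of 0.176 and 0.888. Hoxd13 missed the threshold of limma's test in 4 of 19 alternatives, with a largest adjusted p of 0.989.

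**Figure D4:**
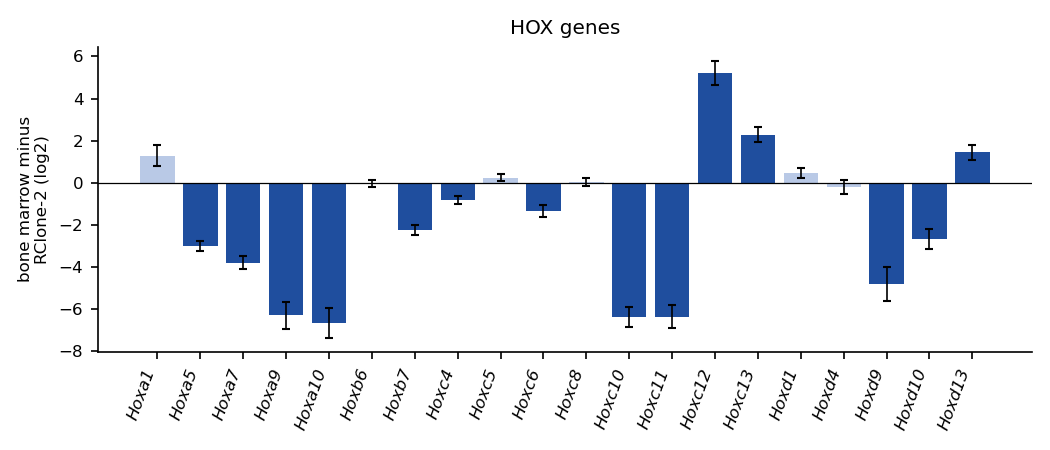
Difference of each measured HOX gene, bone marrow lines minus RClone-2 (log2, bars; whiskers, standard error), filled where the adjusted p is under 0.05 and pale where it is not. The 11 lower genes lie in clusters A, B, C and D, and the 3 higher ones are Hoxc12, Hoxc13 and Hoxd13.

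Of 35 growth factor genes, 11 were higher and 15 lower. Pdgfra, which marks primitive endoderm, had line means of 5.13 for CL19, 5.25 for 3C3 and 5.29 for RMAPC-1 against -1.50 and -1.95, a difference of 6.95 ± 0.17 (adjusted p = 3.16e-06), and Pdgfrb went the other way, as given above. Igfbp3, an IGF carrier, was at least 559-fold higher (adjusted p = 1.05e-05), and Igf1r, the IGF receptor, differed by -7.59 ± 0.26 (adjusted p = 7.65e-06). Igf1 was at least 265-fold higher at its brightest probe, but its other probes differed by -0.67, -0.02 and 2.35, so it is uncertain. The receptor Ret differed by 8.38 ± 0.27 (adjusted p = 6.41e-06), and Gfra1, its co-receptor, by -9.98 ± 1.32 (adjusted p = 0.00185). Igf2bp1, an embryonic RNA-binding protein, was at least 138-fold higher, and Bdnf at least 150.2-fold lower. Csf1, the macrophage growth factor, differed by -8.45 ± 0.74 (adjusted p = 3.55e-04). Igf1r and Gfra1 were above background on only 5 and 2 of the 6 bone marrow arrays, and with signals at the floor the differences were -7.59 and -9.48. Ret was above background on only 1 of the 2 RClone-2 arrays, and with signals at the floor its difference was 8.21.

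Of 23 genes of the FGF pathway, 10 were higher and 5 lower, the latter 3 without 3C3 and array A of RMAPC-1. Fgfr3 differed by 5.84 ± 0.29 (adjusted p = 3.50e-05), Fgfr4 was at least 82.5-fold higher, and Fgfr1 did not pass, at -0.60 ± 0.56. Klb, a co-receptor of endocrine FGFs, was at least 149-fold higher, and Fgf7, a mesenchymal ligand for epithelia, at least 121-fold lower. Fgf10, another such ligand, differed by 4.59 ± 0.38. The feedback inhibitors were split, with Spry1 at least 124-fold higher and Dusp6 at -5.13 ± 0.62. Of 38 WNT genes, 10 were higher (26.3%, against 26.8% of all genes) and 13 lower (34.2%, against 19.5%). Wnt5a, a noncanonical ligand of mesenchyme, was at 2.29 and 2.32 in RClone-2 and above background on no bone marrow array, at least 324-fold lower (adjusted p = 0.00379), and Wnt11 was at least 21.2-fold higher. The inhibitors Sfrp1 and Dkk1 were at least 366-fold and at least 647-fold higher. Inhibitors were not alone among the higher genes, which also held the ligand Wnt7b and Rspo3, at 5.68 and 6.17 without RMAPC-1. The activity of the pathway was not tested. The canonical targets Axin2 and Lef1 differed by -3.14 ± 0.44 and -3.82 ± 0.61. Axin2 and Lef1 were above background on only 1 of the 6 bone marrow arrays, and with signals at the floor the differences were -2.09 and -2.20. Axin2 and Lef1 did not pass limma's test under normexp background correction, at an adjusted p of 0.422 and 0.299.

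Of 44 BMP, activin and TGF-beta genes, 12 were higher (27.3%, against 26.8% of all genes) and 16 lower (36.4%, against 19.5%). Tgfb2 was at least 18.2-fold lower (adjusted p = 2.58e-06), and Tgfb3 differed by -6.69 ± 0.71 (adjusted p = 7.46e-04). Among extracellular modulators, Nog differed by 6.54 ± 0.39 (adjusted p = 7.04e-05), and Chrdl1 was at least 94.4-fold lower, while Fstl1 differed by -9.14 ± 0.62. Nodal, a ligand of embryonic patterning, was at least 7.06-fold higher, Bmp6 at least 9.20-fold higher, and the activin receptor Acvr2b differed by 4.21 ± 0.25. Of 19 LIF and IL-6 family genes, 6 were higher and 5 lower: Lifr, the LIF receptor, differed by 4.47 ± 0.23 (adjusted p = 4.28e-05) and Il6r by -8.34 ± 0.80 (adjusted p = 4.92e-04), while the shared chain Il6st did not pass, at -0.59 ± 0.43. Of 25 hedgehog and Notch genes, 7 were higher and 5 lower, the latter 3 without array B of RMAPC-1; Notch4 and Notch2 differed by 2.39 ± 0.15 and -2.73 ± 0.14, and Dll1 was at least 6.70-fold higher. Of 28 ephrin and semaphorin genes, 13 were higher and 8 lower. The ephrin receptors Epha1, Epha4 and Ephb3 were higher, Epha1 by at least 114-fold, Epha4 at 6.68 ± 0.31 and Ephb3 at 7.65 ± 0.40, while the repellent Slit2 differed by -7.53 ± 0.82. Tgfb3, Fstl1 and Il6r were above background on only 2, 1 and 1 of the 6 bone marrow arrays, and with signals at the floor the differences were -6.23, -8.73 and -6.40. Dll1 and Nodal did not pass limma's test under normexp background correction, at an adjusted p of 0.154 and 0.288.

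Secreted immune signals were among the lower genes. Of 21 chemokine and cytokine genes, 0 were higher and 13 lower, with a median of -2.36 (-0.89 with signals at the floor). Of the 21, 9 were above background on no bone marrow array, so the filter bears on their direction. A further 13 listed genes did not pass the filter. Ccl2, which recruits monocytes, was at 7.34 and 6.88 in RClone-2 and above background on no bone marrow array, at least 9085-fold lower (adjusted p = 1.68e-06). Ccl7, a close relative, was at least 831-fold lower, Cxcl1 differed by -11.91 ± 1.24 (adjusted p = 6.94e-04), and Mif, bright in all lines, did not pass, at 0.32 ± 0.18. Of 26 interferon response genes, 7 were higher (26.9%, against 26.8% of all genes) and 10 lower (38.5%, against 19.5%). Isg15, an interferon-induced ubiquitin-like protein, had line means of 3.86 for CL19, 6.23 for 3C3 and 3.36 for RMAPC-1 against -3.40 and -4.10, a difference of 8.23 ± 1.09 (adjusted p = 0.00182), and Usp18, which removes it from proteins, by -5.91 ± 0.89 (adjusted p = 0.00311). Irf7 and Gbp2 differed by -3.14 ± 0.27 and -3.80 ± 0.61. Of 15 genes for presenting antigen, 5 were lower and 0 higher. B2m, the light chain of class I molecules, differed by -2.23 ± 0.21 (adjusted p = 4.59e-04), and the peptide transporter Tap1 by -2.42 ± 0.32 (adjusted p = 0.00181). The lower count was 2 without array A of RMAPC-1 and without 3C3 and that array, and 1 gene was higher without array B. Cxcl1 was above background on only 2 of the 6 bone marrow arrays, and with signals at the floor its difference was -11.19.

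Markers of other cell types that marrow could hold were read for every list. Of the 35 hematopoietic markers, 4 had no probe and 16 did not pass the filter on dim probes, among them the defining Ptprc, CD45, and Cd34, and of 15 tested, 8 were higher and 3 lower. The higher count was 5 without 3C3 and array A of RMAPC-1. Gata1 and Klf1, factors of erythroid cells, were high, with Gata1 at least 80.3-fold higher (adjusted p = 2.02e-05) and Klf1 at 6.03 ± 0.36 (adjusted p = 6.79e-05), and Lmo2 was at least 19.7-fold higher. The higher members also held Coro1a, Fcer1g and Cd68, which differed by 6.05, 1.49 and 1.197 without RMAPC-1. Fcer1g and Cd68 missed the threshold of limma's test in 3 and 9 of 20 alternatives. The lower members Cd14, Csf1r and Gata2 differed by -5.52, -1.66 and -1.34 without RMAPC-1. Csf1r and Gata2 missed the threshold of limma's test in 3 and 2 of 20 alternatives. Spi1, the myeloid factor, lay below background on all 8 arrays. Of 17 endothelial markers, 10 were higher, 6 without 3C3 and array A of RMAPC-1, and 4 lower. Of the 17, 8 were above background on neither RClone-2 array, so the filter bears on their direction. Pecam1, CD31, was at least 8.69-fold higher (adjusted p = 0.00203), Vwf at least 14.7-fold higher, and the defining Cdh5 did not pass, at -0.06 ± 0.22. The lower members Mmrn2, Eng, Nos3 and Egfl7 differed by -6.41, -4.30, -2.19 and -1.78 without RMAPC-1, unlike the folds above, which used all 3 lines. Over the 20 alternatives their differences ranged from -6.41 to -5.87, -4.76 to -2.72, -2.59 to -0.23 and -1.98 to -1.37. Nos3 and Egfl7 each missed the threshold of limma's test in 1 of 20 alternatives. Of 14 neural markers, 5 were higher, 3 without 3C3 and array A of RMAPC-1, and 3 lower, with Sox2, Pax6 and Gfap below the filter, Elavl3 at least 55.2-fold higher and Snap25 at least 46.0-fold lower. Of 8 trophoblast genes, 3 were higher and 2 lower, with Tfap2c at least 85.5-fold higher and Cdx2 not called. Of 12 definitive endoderm and gut genes, 3 were higher and 1 lower, and without RMAPC-1 these were 1 and 0. The lower count was also 0 without array B of RMAPC-1, and without 3C3 and array A. In bulk RNA, fewer cells of a type and less RNA per cell cannot be told apart, and the part of other cell types in the results was not tested. The summed level of the 15 tested hematopoietic markers was 4.18 to 5.08 on the bone marrow arrays and 5.42 to 5.61 in RClone-2. The summed level of the 17 tested endothelial markers was 2.55 to 4.001 on the bone marrow arrays and 5.75 to 5.86 in RClone-2. The summed level of the 14 tested neural markers was 3.03 to 4.70 on the bone marrow arrays and 1.01 to 1.18 in RClone-2. Trophoblast genes summed to between 0.16 and 1.30 against 0.78 to 0.93, and definitive endoderm and gut genes to between 0.62 and 2.05 against -1.28 to -1.11. Smooth muscle genes lay at 5.99 to 6.73 against 8.09 to 8.10, and cartilage and adipose genes at 1.54 to 1.89 against 3.39 to 3.51. Bone and osteoblast genes lay at 8.33 to 8.82 against 7.99 to 8.07, although more of them were lower than higher. Lmo2 and Pecam1 did not pass limma's test under normexp background correction, at an adjusted p of 0.0675 and 0.131.

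Imprinted genes, read from a single parental allele, differed in both directions, with 7 of 20 higher and 6 lower. H19, a noncoding RNA of fetal tissues, had line means of 6.85 for CL19, 7.20 for 3C3 and 7.23 for RMAPC-1 against -5.92 and -4.21, a difference of 12.16 ± 1.13 (adjusted p = 4.35e-04). Ndn was at least 1521-fold higher (adjusted p = 8.24e-06), and Phlda2, a placental growth regulator, differed by 10.20 ± 0.51 (adjusted p = 3.65e-05). Cdkn1c, a cyclin-dependent kinase inhibitor, was at 1.39 on array A of RMAPC-1, at 7.42 on its array B and between 6.59 and 7.54 on the arrays of CL19 and 3C3, against 0.80 and -0.69 in RClone-2, a difference of 6.07 ± 1.02 (adjusted p = 0.00465). Plagl1 and Ascl2 were lower, at -4.26 ± 0.62 and -4.86 ± 0.58. Of 22 inhibitors of cyclin-dependent kinases and p53 targets, 7 were higher and 5 lower. The INK4 inhibitors among them were lower, Cdkn2a at -5.35 ± 0.79, Cdkn2b at -7.07 ± 0.27, Cdkn2c at -4.68 ± 0.35 and Cdkn2d at -2.59 ± 0.27, and Cdkn1a did not pass, at -2.08 ± 0.75. Among 32 cell cycle genes, 5 were higher, 3 without 3C3 and array A of RMAPC-1, and 5 lower: the D-type pathway kinase Cdk6 was at least 146-fold lower and Ccnd1 differed by -3.29 ± 0.51 (adjusted p = 0.0035), whereas Ccne1 differed by 1.65 ± 0.18 (adjusted p = 8.37e-04) and the mitotic kinase Cdk1 did not pass, at -0.33 ± 0.15. Plagl1 was above background on only 4 of the 6 bone marrow arrays, and with signals at the floor its difference was -4.09. H19 was above background on only 1 of the 2 RClone-2 arrays, and with signals at the floor its difference was 12.16. Cdkn1c missed the threshold of limma's test in part of the alternatives, its adjusted p being 0.066 with 3C3 and RMAPC-1 set against RClone-2 on their shared slides and 0.106 with array B of RMAPC-1 left out.

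Metabolic groups varied against the background shares. Of 31 respiratory chain genes, 2 were higher and 0 lower, and the higher count was 1 without RMAPC-1 and 0 without its array A, with or without 3C3. Of 25 cholesterol synthesis genes, 3 were higher and 5 lower, the latter 2 without RMAPC-1 and 1 without 3C3 and array A of RMAPC-1. Of 31 glycolysis and hypoxia genes, 9 were higher (29.0%) and 8 lower (25.8%), against the same shares. The lower count was 5 without array B of RMAPC-1 and 4 without 3C3 and array A. Slc16a3, the lactate exporter, had line means of 6.94, 7.10 and 7.03 against -2.74 and -3.21, a difference of 10.00 ± 0.31 (adjusted p = 5.83e-06), and Egln3, an oxygen sensor, differed by 5.86 ± 0.19 (adjusted p = 6.78e-06). Of 24 amino acid genes, 10 were higher and 4 lower, the latter 2 without 3C3 and array A of RMAPC-1. Slc7a3, a cationic amino acid transporter, differed by 7.14 ± 0.58 (adjusted p = 2.50e-04) and Asns by 2.07 ± 0.21. Of 27 lysosomal genes, 4 were higher and 14 lower, the latter 7 without 3C3 and array A of RMAPC-1, with the cathepsins Ctsc at least 786-fold higher, Ctsz at 6.01 ± 0.36 and Ctsd at -3.02 ± 0.43. Of 15 retinoid genes, 4 were higher (26.7%, against 26.8% of all genes) and 7 lower (46.7%, against 19.5%). Of the retinoic acid carriers, Crabp1 was at least 55.3-fold lower and Crabp2 differed by -6.16 ± 0.31 (adjusted p = 3.74e-05). The degrading enzymes Cyp26a1 and Cyp26b1 differed by 8.09 ± 1.14 and -5.59 ± 0.91. Cyp26b1 was above background on only 3 of the 6 bone marrow arrays, and with signals at the floor its difference was -5.41. Slc7a3 was above background on only 1 of the 2 RClone-2 arrays, and with signals at the floor its difference was 6.69.

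**Figure D5:**
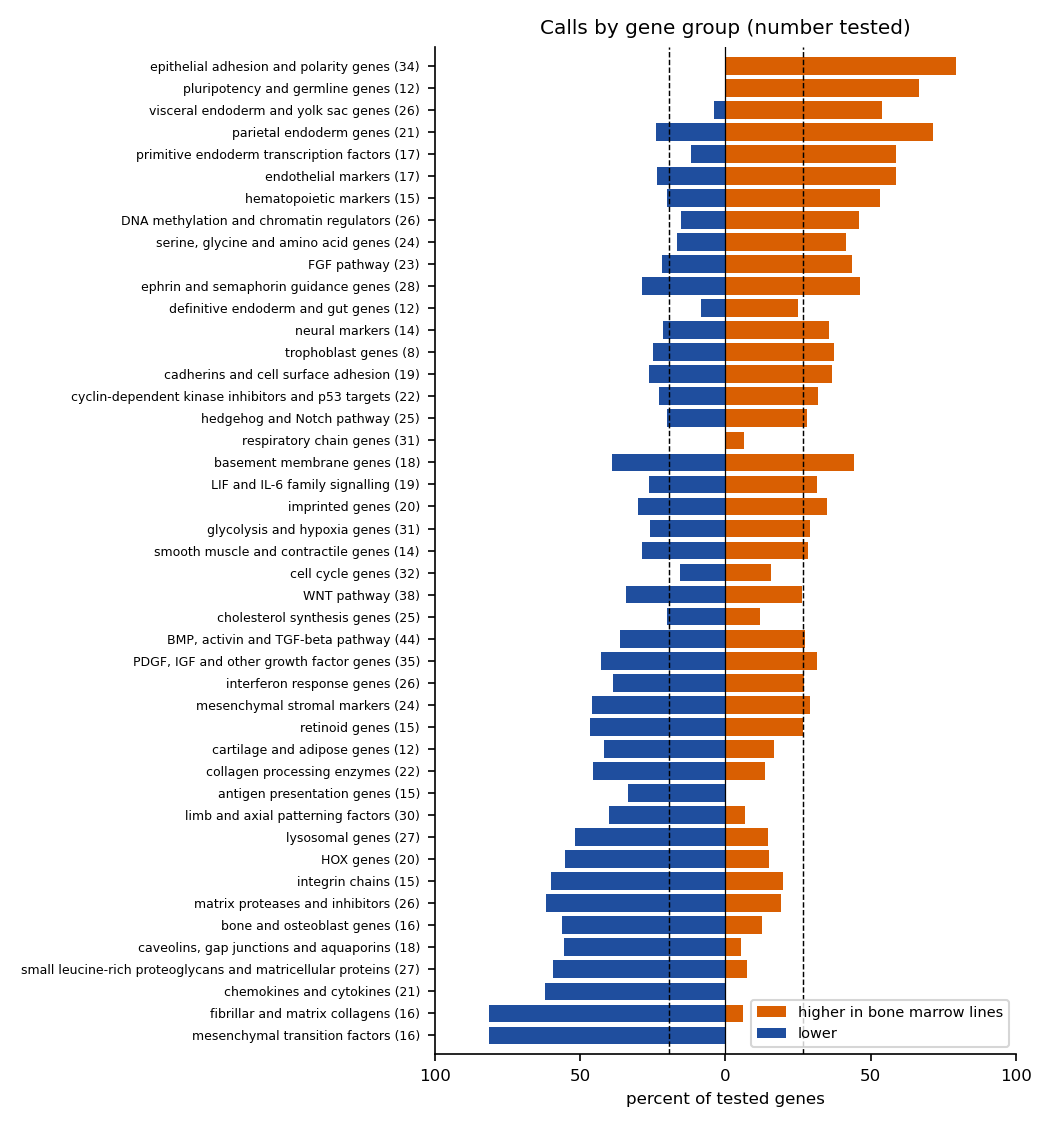
Share of the tested genes of each group that were higher (right) or lower (left) in the bone marrow lines than in RClone-2, in percent, ordered by their difference; dashed lines mark the shares over all genes, 26.8% higher and 19.5% lower. Epithelial genes reach 79.4% higher and mesenchymal transition genes 81.2% lower.

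Among the largest differences over all genes, several lie outside these groups. Fbxo2, a ubiquitin ligase subunit that recognizes glycoproteins, was above background on every bone marrow array and on no RClone-2 array and was at least 1469-fold higher (adjusted p = 2.65e-05). Rbpms, an RNA-binding protein, was at least 902-fold higher (adjusted p = 1.68e-06), and Rhox9, an X-linked homeobox gene of the reproductive lineage, differed by 11.62 ± 0.63 (adjusted p = 4.90e-05). Podxl, a sialomucin of the apical surface, had line means of 7.35, 7.54 and 7.39 against -3.79 and -3.47, a difference of 11.06 ± 0.35 (adjusted p = 6.28e-06), and Dusp9, an ERK phosphatase, differed by 10.90 ± 0.30 (adjusted p = 4.09e-06). In the other direction, Il1rl1, the receptor of interleukin-33, was above background on both RClone-2 arrays and on no bone marrow array, at least 4619-fold lower (adjusted p = 1.68e-06). Gda, guanine deaminase, was at least 6937-fold lower, Ptgs1, cyclooxygenase-1, at least 1897-fold lower, and Emp3 differed by -12.34 ± 0.27 (adjusted p = 2.28e-06). Rhox9 was above background on only 1 of the 2 RClone-2 arrays, and with signals at the floor its difference was 11.10.

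Few genes were called among the bone marrow lines themselves. An F-test over arrays, whose replicates are arrays of the same line, called 191 of 24842 genes (0.769%). The count was 3918 without array A of RMAPC-1, 1533 without array B, and 813 for CL19 against 3C3 with RMAPC-1 left out. The cause of this change was not tested. The named genes are among those with the widest range of line means. Cdh22, a cadherin, had line means of -0.46 for CL19, -3.54 for 3C3 and 1.08 for RMAPC-1 (adjusted p = 0.0443). Rph3al, an effector of vesicle release, had -3.92, -0.96 and -4.14 (adjusted p = 0.00797), highest in 3C3. Lrrc8c, a subunit of volume-regulated anion channels, had -6.10, -2.73 and -3.26 (adjusted p = 0.00337), lowest in CL19. Emx2, a homeobox factor, had -1.59, -0.73 and -3.89 (adjusted p = 0.0196), lowest in RMAPC-1. Rtp4, an interferon-induced chaperone, had -1.30, 1.14 and -2.15 (adjusted p = 0.0351), highest in 3C3. These p-values are from limma's F-test and measure the spread between arrays of the same line. Under normexp 4 of these genes did not pass, Rph3al with an adjusted p = 0.421, Lrrc8c with 0.999999, Emx2 with 0.165 and Rtp4 with 0.0827 by the F-test. Cdh22 and Rtp4 did not pass without the filter on dim probes (limma F-test, adjusted p = 0.0792 and 0.0634) nor with the array letter as a block (adjusted p = 0.0695 and 0.0634). Between CL19 and 3C3 without RMAPC-1, Cdh22 and Emx2 did not pass (limma, adjusted p = 0.0642 and 0.0822).

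Between arrays A and B of RMAPC-1, the widest gaps, given as a description of genes chosen for them, were in named genes too. Wnt6, a WNT ligand, was at -7.47 on array A and 0.15 on array B, with the other 4 bone marrow arrays at -8.09 to -6.62. Msln, a mesothelial surface protein, was at -3.99 on array A and 2.78 on array B, with the other 4 bone marrow arrays at 0.06 to 1.11. In Wnt6 array A lay with the other bone marrow arrays, and in Msln it lay below them. Car7, a carbonic anhydrase, was at 1.34 on array A and -7.17 on array B, with the other 4 bone marrow arrays at -0.08 to 1.14. Fmo5, a flavin monooxygenase, was at 1.18 on array A and -7.09 on array B, with the other 4 bone marrow arrays at 0.25 to 1.14. Nefh, a neurofilament, was at 1.26 on array A and -5.29 on array B, with the other 4 bone marrow arrays at 0.53 to 0.93. In these 3 genes array B alone was low. Cd81, a tetraspanin, was at -5.78 on array A and 0.92 on array B, with the other 4 bone marrow arrays at 0.17 to 1.27. Cd81 was below background on array A and above it on the other bone marrow arrays.

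The bone marrow and blastocyst lines share RClone-2 as their control, so their differences from it are not set against each other as results. In the test of bone marrow against blastocyst lines themselves, 6110 genes (24.6%) were higher in the bone marrow lines and 2048 (8.24%) lower. Of the 20 key genes, 10 passed that test, and among them Pou5f1 differed by 2.80 ± 0.39.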

How the data were processed

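RNA of 7 rat cell lines was hybridized to 1-colour Agilent arrays, 2 per line. Per the file headers, the scanner files hold the intensity of each spot, deposited by the authors as processed signal after background subtraction by Agilent Feature Extraction 10.7.3.1. The deposited series table holds log2 values equal to the log2 of that processed signal, not scaled between arrays. Calls of well above background and of outlier spots are the deposited flags, and probe coordinates were used only to set Uty aside.

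Control spots and outlier spots were left out, spots of a probe were averaged, log2 signals were set relative to the 75th percentile of each array, and arrays A and B were averaged by line. Of 41012 probes, 20771 were named through the RefSeq gene table and the others kept the name in the file. The brightest probe stood for a gene, and a gene was kept if 1 line or more had it well above background on its A and B arrays alike. Differences were tested in R 4.3.3 by limma 3.58.1 (lmFit, then eBayes, over all 7 lines, 4 residual degrees of freedom, Benjamini-Hochberg over 24842 genes, threshold 0.05). The bone marrow lines were compared with each other by limma's F-test over the 14 arrays. Promoters were searched with pandas 2.3.3.

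Lower bounds of a fold set the mean of the brighter group against, per array of the dimmer group, the higher of the lowest signal among probes well above background and the probe's own. Named genes are the 20 largest passing differences each way, all key genes, up to 6 passing members each way and up to 4 others of each list, and 12 genes with the widest range among bone marrow lines. Crb3 and Cldn6 were added after their values were seen, and some genes under the rule are not reported here. The members and lists were chosen with earlier results of these data known. Alternatives changed background correction, scaling, dim probe filter, probes, lines, slides and test, and settings without doubted arrays were added after seeing the data. The p-values against RClone-2 measure the spread between bone marrow and between blastocyst lines, since RClone-2, as 1 line, adds none. Those of the F-test measure the spread between arrays of a line. The number of arrays limits the precision.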

Additional observations from a re-analysis of the deposited data

Results flagged for a closer look

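In 15 of 193 genes compared, 1 bone marrow array stood far from the other 5 by Dixon's criterion. Chance meets it in about 1 in 20 groups of independent values. That rate need not hold here, since arrays A and B share a line and the genes were chosen. Array A of RMAPC-1 was that array in 7 genes and its array B in 5. On array A of RMAPC-1, Asns had a level of 5.98 against 5.28 to 5.47 on the others. Cdkn1c there was at 1.39 against 6.59 to 7.54. Dnmt3l there was at 7.24 against 5.36 to 5.86. Nog there was at -0.0416 against 0.63 to 0.99. Pdgfrb there was at -5.45 against -8.20 to -7.67. Phlda2 there was at 3.18 against 5.40 to 6.45. Tet2 there was at -1.27 against -2.33 to -2.12. On array B of RMAPC-1, Eng had a level of -5.15 against -4.32 to -3.96 on the others. Igfbp3 there was at 4.89 against 1.86 to 2.75. Klb there was at 1.19 against 0.75 to 0.89. Pecam1 there was at -1.94 against -3.84 to -3.15. Timp3 there was at -1.91 against -0.89 to -0.29. On array A of 3C3, Ccne1 had a level of 6.72 against 6.24 to 6.41 on the others. Il6r there was at -5.35 against -8.76 to -8.11. On array B of CL19, Lef1 had a level of -5.20 against -8.09 to -7.66 on the others.

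Among the 20 key genes, 10 differed between the bone marrow and the blastocyst lines by limma's test of that difference, on the log2 scale. These were Cdh1 by 2.67 ± 0.55 (adjusted p = 0.0186), Col1a1 by 0.91 ± 0.11 (adjusted p = 0.00652), Dab2 by 1.80 ± 0.48 (adjusted p = 0.0353), Dnmt3l by 3.00 ± 0.90 (adjusted p = 0.0484), Epcam by 1.48 ± 0.33 (adjusted p = 0.0231). The others were Foxa2 by 0.63 ± 0.15 (adjusted p = 0.0257), Gata6 by 0.54 ± 0.13 (adjusted p = 0.026), H19 by 4.25 ± 0.80 (adjusted p = 0.0152), Pou5f1 by 2.80 ± 0.39 (adjusted p = 0.00839) and Spp1 by 0.39 ± 0.11 (adjusted p = 0.0364). All were higher in the bone marrow lines. For Spp1, which lay below background on every bone marrow array, the value is a difference between signals at background.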

How the results depend on the processing

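The direction of the comparison with RClone-2 held in all settings run, with 52.9 to 59.0% of called genes higher. Normexp background correction called 5730 genes (3032 higher, 2698 lower) and limma's treat test against a 1.5-fold difference called 6695 (3558 higher, 3137 lower). Without 3C3 and array A of RMAPC-1, 4359 genes were higher. Leaving out 1 bone marrow line, or 1 array of RMAPC-1, gave 9722 to 11334 calls, of which 5495 to 6639 were higher. Among the bone marrow lines, the F-test called 6 genes with normexp, 85 without a filter on dim probes, 813 for CL19 against 3C3 without RMAPC-1, and 1533 to 3918 without 1 array of RMAPC-1. With the array letter as a replicate block, 13035 genes differed from RClone-2 and 111 among the bone marrow lines. The letters name arrays and not shared cultures, so the block is no pairing. Of 208 passing genes of the text that were counted, 186 passed in every alternative. The others missed the threshold in 1 or more, 18 of them with normexp. Hoxd13, outside that count, missed it in 4 of 19 alternatives. Of genes in the text that did not pass, Snai1 changed sign to -0.0264 with the percentile over detected probes, -0.0579 with the mean of its probes and -0.34 with A arrays only, and lay between -0.22 and 0.36 with 1 line or 1 array left out. Cdh5 was 0.0174 with A arrays only and 0.12 without 3C3 and array A of RMAPC-1, and lay between -0.18 and 0.0504 with 1 line or array left out. Spi1 and Cdx2, which did not pass either and were outside the count, changed sign in 3 of 19 and 1 of 20 alternatives. The cause of these changes was not tested. Levels near background are the limit of these arrays.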
